A study of Danio rerio with 6 samples.

Results

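The inflammatory and growth cytokines studied here were il1b, tnfa, tnfb, il10, il34, tgfb1a, csf1a and csf1b, a set of 8 genes picked by name. Of these, 7 were found by name among the 33737 genes of the deposited table, and il1b was not analysed here. RNA was sequenced from the olfactory epithelium of adult zebrafish of a wild-type line, labelled as an AB derived line and named in the methods as the Cornell strain, derived from Oregon AB. The PEA group, 3 libraries, came from fish given the rose-scented odorant phenylethyl alcohol (PEA) each day over 3 weeks of development, and the control group, 3 libraries, from fish given distilled water instead. Fish were killed at 6 months per the labels, and 10 fish were used per group, although it is not said if each library held that many. The methods of the study give an older age range for its adults. The exposures are called biological triplicates, and how fish were divided among libraries is not described, so p-values measure the spread between these libraries.

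Cytokines are secreted or membrane-bound proteins through which cells of a tissue tell each other about damage, infection and growth. Tumour necrosis factor (TNF) starts inflammatory transcription through NF-kB, whereas interleukin-10 (IL-10) and transforming growth factor beta (TGF-beta) restrain it. Colony-stimulating factor 1 (CSF1) and interleukin-34 (IL-34) are both ligands of the CSF1 receptor, on which macrophages and microglia depend, and in zebrafish that receptor family also serves yellow pigment cells. In the olfactory epithelium, where sensory neurons are replaced throughout life, such signals reach both resident immune cells and neural progenitors. Zebrafish keep several of these genes as pairs of copies, here tnfa with tnfb and csf1a with csf1b.

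Counts assigned to genes came to between 43590575 and 46153505 in the PEA libraries and between 45153814 and 49085973 in the control libraries, and 3 counts corresponded to 0.0586 to 0.0697 CPM, the unit of levels below, in which counts are divided by the scaled library size. All 12 olfactory sensory neuron markers that matched were measured, with a summed level of 3206 to 3887 CPM in PEA and 3369 to 3465 CPM in control, so the labelled tissue was present. Mitochondrially encoded genes took 7.25% to 9.68% of counts in PEA and 6.23% to 6.91% in control, ranges that did not overlap, and their part in the results was not tested.

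No cytokine passed the test between adults exposed to PEA in early life and controls. Of the 7 genes, 6 had enough counts to be tested, and il34 did not. By edgeR's quasi-likelihood test with Benjamini-Hochberg adjustment, 0 of the 6 passed an adjusted p of 0.05, the same as the 0% of all 20628 genes tested. At an unadjusted p under 0.05 the count was again 0 of 6, against 1.66% of all genes. DESeq2, the other tool, called 0 of the 7, where it called 0.0184% of the 27192 genes it tested. In 0 of the 6 did all PEA libraries lie on 1 side of all control libraries, which 5.51% of all genes did. The fitted log2 fold change was above 0 in 6 of 6, against 48.5% of all genes, with a median of 0.10 over the cytokines. In 3 of these genes the sign depended on which libraries were used, as given below for each. The deposited RNA is from whole tissue, where fewer cells of a type and less RNA per cell cannot be told apart. Gene lengths in the authors' annotation were not used here, so levels are compared between groups and not between genes.

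**Figure D1:**
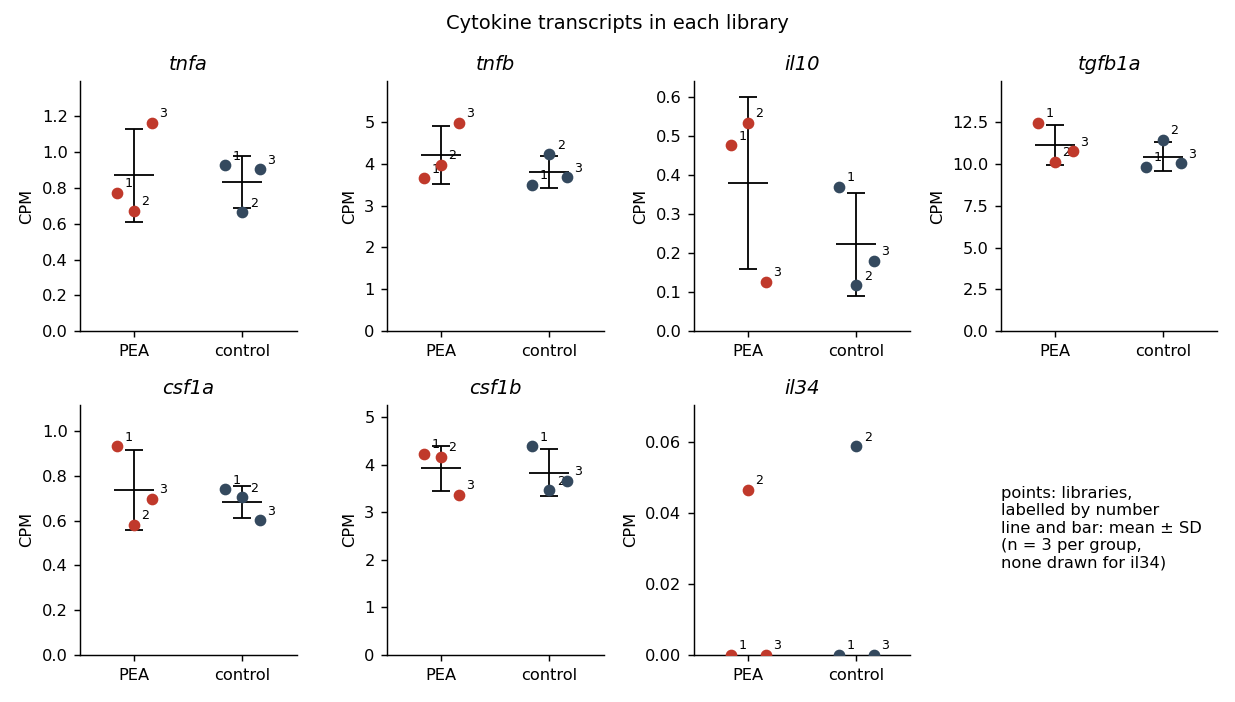
Each panel shows 1 cytokine gene, with its level in CPM on the vertical axis (starting at 0) and the PEA and control groups on the horizontal axis. Points are libraries, labelled by their number, and lines with bars are means ± SD (n = 3 per group, none drawn for il34). The groups overlapped in every panel, and il10 had the widest spread, with PEA 3 at 6 counts far below PEA 1 and PEA 2.

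The first pair of copies encodes TNF, the early inflammatory signal that is made by activated macrophages among other cells. The gene tnfa (ENSDARG00000009511) had 34, 29 and 55 counts in PEA 1 to 3, against 40, 34 and 45 counts in control 1 to 3. PEA 3 was the highest library and control 2 the lowest, and PEA 1 and PEA 2 lay within the control range. Means were 0.870 ± 0.260 CPM in PEA and 0.832 ± 0.145 CPM in control (SD, n = 3 each). The log2 fold change was 0.07 (SE 0.30, edgeR adjusted p = 1.00), with a 95% interval of -0.61 to 0.75. That interval runs from 0.656 to 1.68 times the control level, so larger differences fall outside it. Without PEA 3 the log2 fold change was -0.20 and without control 2 it was -0.07, so its sign rested on either of these libraries.

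The second copy, tnfb (ENSDARG00000013598), was measured more precisely. It had 161, 171 and 235 counts in PEA 1 to 3, against 151, 216 and 183 counts in control 1 to 3. PEA 3 was again the highest library, control 1 the lowest, and control 2 exceeded PEA 1 and PEA 2. Means were 4.20 ± 0.688 CPM in PEA and 3.80 ± 0.377 CPM in control (SD, n = 3 each). The log2 fold change of 0.15 (SE 0.18, edgeR adjusted p = 1.00) had a 95% interval of -0.27 to 0.56, or 0.832 to 1.47 times control. Without PEA 3 it was 0.01, the lowest of the values with 1 library left out, and it stayed above 0 in each of them. In the current RefSeq annotation (assembly GRCz12tu, used for names only) tnfb lies between lta, another member of the TNF family, and gabbr1a, and a non-coding transcript overlaps it. The setting for strand in the counting is not given in the sources used here, so reads of such a partner cannot be told apart from those of tnfb. The neighbour lta had 5, 10 and 23 counts in PEA 1 to 3, against 10, 19 and 24 counts in control 1 to 3, with a log2 fold change of -0.38 (SE 0.52).

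The balance between the copies does not depend on how libraries are scaled. Reads of tnfa made up 17.4%, 14.5% and 19.0% of the reads of the pair in PEA 1 to 3, against 20.9%, 13.6% and 19.7% in control 1 to 3. The exact (Clopper-Pearson) 95% binomial intervals of single libraries spanned, for example, 14.6% to 24.0% in PEA 3 and 9.61% to 18.5% in control 2, and cover counting error only. Mean shares were 17.0% ± 2.27 in PEA and 18.1% ± 3.94 in control (SD, n = 3 each). The difference of -1.13 percentage points was smaller than either SD (2-sided exact permutation test, p = 0.70, adjusted over 2 shares 0.80). With 3 libraries against 3 this test cannot give a p below 0.1.

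Among genes that act between TNF and the cell, 13 of 13 matched members of the list on TNF shedding and death signalling were tested and 0 passed in either direction. Of them 7 had a log2 fold change above 0 and 6 below, with a median of 0.00, against -0.00483 over all genes tested. The sheddases adam17a and adam17b, which release TNF from the membrane, showed log2 fold changes of 0.08 (SE 0.10) for adam17a and 0.27 (SE 0.21) for adam17b. The caspases casp8l1 and casp3a, which carry out death signalling, showed 0.19 (SE 0.21) for casp8l1 and 0.06 (SE 0.11) for casp3a. The receptor tnfrsf1a, through which TNF signals in most cells, had 75.6, 87.1 and 65.1 CPM in PEA 1 to 3 and 70.0, 75.4 and 68.2 CPM in control 1 to 3, with a log2 fold change of 0.09 (SE 0.12). The second TNF receptor, tnfrsf1b, had 172, 130 and 171 counts in PEA 1 to 3 and 101, 171 and 157 counts in control 1 to 3, with a log2 fold change of 0.25 (SE 0.20). The groups overlapped for both receptors.

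The NF-kB pathway, which TNF and IL-1 receptors activate, was measured by 22 genes, of which 15 had a log2 fold change above 0, 7 below and 0 passed the test (median 0.08). Lowest in unadjusted p were traf3, a brake on the alternative branch of the pathway, at 0.24 (SE 0.12), the kinase adaptor tab3 at -0.19 (SE 0.10) and the co-regulator bcl3 at 0.35 (SE 0.20). For traf3 the groups did not overlap, with 18.7, 18.5 and 22.6 CPM in PEA 1 to 3 against 15.3, 17.3 and 18.1 CPM in control 1 to 3, and its unadjusted edgeR p was 0.0818. For il1b itself no value is given, but genes that process IL-1 were measured. Of 6 such genes 3 had a log2 fold change above 0, 3 below and 0 passed, with a median of 0.04. The lowest unadjusted p values belonged to the inflammasome sensor nlrp1 (si:ch211-66k16.28 in the table) at -0.16 (SE 0.16), the inflammasome adaptor pycard at 0.08 (SE 0.09) and the pore-forming gasdermin gsdmea (dfna5a in the table) at 0.24 (SE 0.38). The interleukin-1 family member il1fma, with the highest CPM of the list, was at -0.06 (SE 0.23). The IL-1 receptor family gene il1rl1 was below the low-count filter, with 6, 4 and 6 counts in PEA 1 to 3 and 2, 1 and 5 counts in control 1 to 3.

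The anti-inflammatory cytokine IL-10 had the widest spread. The gene il10 (ENSDARG00000078147) had 21, 23 and 6 counts in PEA 1 to 3, against 16, 6 and 9 counts in control 1 to 3. The high libraries were PEA 1, PEA 2 and control 1, and the low ones PEA 3, control 2 and control 3, so both groups held high and low libraries. These 3 high libraries also carried the gene over the low-count filter. The exact Poisson 95% interval for the 23 counts of PEA 2 began at 14.6 and that for the 6 counts of PEA 3 ended at 13.1, so these libraries of 1 group differed beyond counting error.

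Means of il10 were 0.380 ± 0.221 CPM in PEA and 0.223 ± 0.132 CPM in control (SD, n = 3 each). The log2 fold change was 0.78 (SE 0.60, edgeR adjusted p = 1.00, unadjusted p = 0.230). Its 95% interval of -0.60 to 2.15 spans 0.661 to 4.44 times the control level, the widest of the cytokines, so neither a lower level nor a 4-fold higher one lies outside it. Leaving out 1 library at a time gave 0.45 (without PEA 2) to 1.33 (without control 1). Without PEA 3 it was 1.20 and the unadjusted edgeR p was 0.0463, while the adjusted p remained 1.00. In that fit 923 of the 20878 genes tested had an unadjusted edgeR p under 0.05, against 342 of 20628 with all libraries. The log2 fold change of il10 was also 0.46 without control 2, a change by over 1.5 times from the value in all libraries. When at least 10 counts were required in every library, il10 was not tested. In the current RefSeq annotation il10 lies beside il19l and mapkapk2a, and a non-coding transcript overlaps it, whose reads cannot be told apart from those of il10 here.

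Some of the genes that act downstream of IL-10 were set beside it library by library. The SOCS proteins are feedback inhibitors that IL-10 and other cytokines induce through STAT3. The gene socs3a had 413, 541 and 158 CPM in PEA 1 to 3, against 660, 139 and 67.9 CPM in control 1 to 3. The gene socs1a had 146, 228 and 95.4 CPM in PEA 1 to 3, against 291, 86.7 and 55.3 CPM in control 1 to 3. Both were highest in control 1, PEA 2 and PEA 1, the libraries that ranked highest in il10. The NF-kB inhibitor nfkbiab, the gene with the highest CPM of its list, had 36334, 47946 and 16970 counts in PEA 1 to 3, against 48213, 11739 and 12288 counts in control 1 to 3, and was high in the same libraries. The glucocorticoid-responsive gene fkbp5 was high in 2 of them, with 71344 counts in PEA 1 and 61019 in control 1. In PEA 2 it had 13386 counts and in PEA 3 15213. In control 2 and control 3 it had 5078 and 5009 counts. The summed level of the 11 matched genes on the list of glucocorticoid targets was 3097, 1609 and 1023 CPM in PEA 1 to 3. In control 1 to 3 it was 3031, 683 and 548 CPM. The list holds fkbp5 itself, so the sum is not separate from its values, and also nr3c1 and hsd11b2. The sum was highest in PEA 1, control 1 and PEA 2, the libraries that ranked highest in il10. These genes, of which socs3a and socs1a were picked after their values were seen, differed between libraries of 1 group by more than between groups. Log2 fold changes were 0.36 (SE 0.76) for socs3a, 0.12 (SE 0.57) for socs1a, 0.53 (SE 0.63) for nfkbiab and 0.48 (SE 1.06) for fkbp5. Of the glucocorticoid targets, 9 of 11 had a log2 fold change above 0 and 0 passed (median 0.31), those lowest in unadjusted p being per1b at 0.49 (SE 0.38), nr3c1, the glucocorticoid receptor, at 0.12 (SE 0.13) and hsd11b2, which inactivates cortisol, at 0.62 (SE 0.70). Other genes of the IL-10 signalling list did not have the library order of socs3a and socs1a. The copy socs3b had 33.5, 40.6 and 36.9 CPM in PEA 1 to 3, against 38.2, 39.7 and 34.4 CPM in control 1 to 3. The copy socs1b was lowest in control 1, at 0.603 CPM. The gene zfp36l1a was lowest in control 1, PEA 1 and PEA 2, at 248, 249 and 281 CPM. Over all genes tested, deviations from the group mean in control 1 correlated at 0.17 with those in PEA 1, 0.15 in PEA 2 and -0.30 in PEA 3. Within a group the deviations of a gene sum to 0, so these 3 values are not independent. They cannot show whether control 1 resembled PEA 1 and PEA 2 beyond the genes named here. The part of all these genes in the il10 values was not tested.

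**Figure D2:**
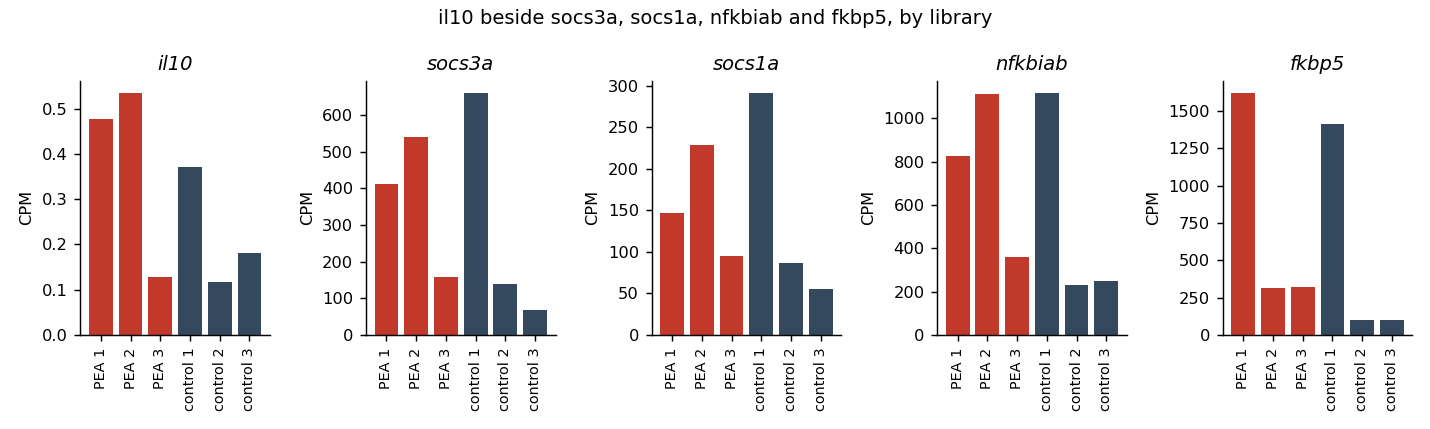
Bars give the level in CPM (vertical axes, starting at 0) of il10, socs3a, socs1a, nfkbiab and fkbp5 in each library, with PEA 1 to 3 in red left of control 1 to 3 in blue. The first 4 genes were highest in PEA 1, PEA 2 and control 1, and fkbp5 in PEA 1 and control 1.

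In the list on IL-10 signalling as a whole, 14 of 14 genes were tested, 8 had a log2 fold change above 0, 6 below and 0 passed (median 0.03). The lowest unadjusted p values belonged to socs1b, another SOCS gene, at 0.31 (SE 0.31), nfil3, a transcription factor, at -0.10 (SE 0.13) and stat1b, a STAT protein, at -0.16 (SE 0.31). The gene with the highest CPM of the list, zfp36l1a, of a family that promotes mRNA decay, was at -0.11 (SE 0.25). The receptor chain il10rb, shared by IL-10 and related cytokines, had 27.1, 28.6 and 35.1 CPM in PEA 1 to 3, against 32.1, 32.5 and 36.8 CPM in control 1 to 3. PEA 1 and PEA 2 were the lowest libraries, but PEA 3 lay above control 1 and control 2, and the log2 fold change was -0.16 (SE 0.12, edgeR adjusted p = 1.00).

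TGF-beta was the cytokine measured with the smallest error. The gene tgfb1a (ENSDARG00000041502) had 549, 437 and 509 counts in PEA 1 to 3, against 425, 586 and 500 counts in control 1 to 3. PEA 1 was the highest library after scaling and control 1 the lowest, and control 2 exceeded PEA 2 and PEA 3. Means were 11.1 ± 1.20 CPM in PEA and 10.5 ± 0.876 CPM in control (SD, n = 3 each). The log2 fold change was 0.09 (SE 0.13, edgeR adjusted p = 1.00), and its 95% interval of -0.21 to 0.39, or 0.867 to 1.31 times control, was the narrowest of the cytokines. It stayed between 0.01 and 0.16 with 1 library left out.

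Its copy tgfb1b had 230, 185 and 226 counts in PEA 1 to 3 and 199, 249 and 252 counts in control 1 to 3, with a log2 fold change of -0.02 (SE 0.15). Reads of tgfb1a made up 70.5%, 70.3% and 69.3% of this pair in PEA 1 to 3, against 68.1%, 70.2% and 66.5% in control 1 to 3. This share was added after the data were seen and is given without a test. Means were 70.0% ± 0.653 in PEA and 68.3% ± 1.85 in control (SD, n = 3 each), and PEA 3 lay below control 2.

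The other TGF-beta ligands and the genes that release them from their latent form gave 14 of 14 tested genes, 9 with a log2 fold change above 0, 5 below and 0 that passed (median 0.05). The integrin subunit itgav, part of receptors that activate latent TGF-beta, lay higher in all PEA libraries, with 93.1, 87.8 and 93.9 CPM in PEA 1 to 3 against 71.1, 83.8 and 87.5 CPM in control 1 to 3. Its log2 fold change was 0.18 (SE 0.10, edgeR adjusted p = 1.00). The name ltbp1, for a protein that tethers the latent complex to the matrix, stands on 2 entries of the table, counted here as separate genes, with values of opposite sign. Log2 fold changes were -0.25 (SE 0.17) for ENSDARG00000056922 and 0.07 (SE 0.18) for ENSDARG00000097768. Of the proteases that cleave the precursor, furinb was at -0.31 (SE 0.22) and furina, the gene with the highest CPM of this list, at 0.05 (SE 0.09).

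Of 16 genes of TGF-beta signalling and its targets, 13 had a log2 fold change above 0, 3 below and 0 passed (median 0.05). The matrix gene tgfbi, named for its induction by TGF-beta, was at 0.13 (SE 0.10) and skilb, a repressor of SMAD proteins, at 0.18 (SE 0.15). Another such repressor, skia, which had the highest CPM of this list, was at 0.04 (SE 0.10). Receptor genes tgfbr1a and tgfbr1b, which encode the signalling chain, showed log2 fold changes of -0.06 (SE 0.25) for tgfbr1a and -0.01 (SE 0.28) for tgfbr1b, and the groups overlapped for both. The table carries the ligand-binding chain under other names than those of the receptor list, tgfbr2 and TGFBR2 (2 of 2), picked after the table was seen, with log2 fold changes of 0.04 (SE 0.10) for tgfbr2 and -0.23 (SE 0.26) for TGFBR2 (2 of 2).

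The ligands of the CSF1 receptor are growth and survival factors for macrophages. The gene csf1a (ENSDARG00000075343) had 41, 25 and 33 counts in PEA 1 to 3, against 32, 36 and 30 counts in control 1 to 3. PEA 1 was the highest library and PEA 2 the lowest, so all control libraries lay within the range of the PEA group. Means were 0.737 ± 0.178 CPM in PEA and 0.683 ± 0.0718 CPM in control (SD, n = 3 each). For csf1a the log2 fold change was 0.11 (SE 0.28, edgeR adjusted p = 1.00), with a 95% interval of -0.53 to 0.75. Without PEA 1 it was -0.09 and without PEA 2 it was 0.25.

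Its copy csf1b (ENSDARG00000068263) had 186, 179 and 159 counts in PEA 1 to 3, against 189, 177 and 182 counts in control 1 to 3. Control 1 was the highest library after scaling and PEA 3 the lowest. Means were 3.92 ± 0.478 CPM in PEA and 3.83 ± 0.485 CPM in control (SD, n = 3 each). The log2 fold change of 0.03 (SE 0.18, edgeR adjusted p = 1.00) had a 95% interval of -0.37 to 0.44, or 0.772 to 1.35 times control. It was below 0 when PEA 1, PEA 2, control 2 or control 3 was left out, within a range of -0.04 to 0.14 over the 6 fits with 1 library left out.

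Within the pair, csf1a took 18.1%, 12.3% and 17.2% of reads in PEA 1 to 3, against 14.5%, 16.9% and 14.2% in control 1 to 3. Mean shares were 15.8% ± 3.13 in PEA and 15.2% ± 1.50 in control (SD, n = 3 each). The difference of 0.657 percentage points was smaller than either SD (2-sided exact permutation test, p = 0.80, adjusted over 2 shares 0.80).

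The gene il34 (ENSDARG00000091003), which in zebrafish draws macrophage precursors into the brain, was at the limit of detection. It had 0, 2 and 0 counts in PEA 1 to 3, against 0, 3 and 0 counts in control 1 to 3. A count of 0 allows up to 3 counts, which is 0.0586 to 0.0697 CPM in these libraries, so no library stood above that floor and no fold change is given. The highest upper end over the libraries was 8.77 counts, in control 2. Differences in il34 among levels this low were not resolved at this depth.

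The receptor csf1rb, 1 of the zebrafish copies of the CSF1 receptor, had 53, 37 and 45 counts in PEA 1 to 3, against 29, 46 and 58 counts in control 1 to 3, with a log2 fold change of 0.14 (SE 0.28). The copies of PTPRZ1, a phosphatase known in mammals as a further receptor of IL-34, were ptprz1a at 0.18 (SE 0.38) and ptprz1b at 0.19 (SE 0.16). For all 3 genes the groups overlapped. Of the 9 receptor genes found by name, 8 were tested, 5 had a log2 fold change above 0, 3 below and 0 passed (median 0.11). The receptor list held 17 names, and csf1ra, il10ra, il1r1 and il1rap were among those not found, so no values are given for them.

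Macrophage and microglia markers, which mark cells that answer to CSF1 and IL-34, were set beside the ligands. Of 19 matched markers 18 were tested, 10 had a log2 fold change above 0, 8 below and 0 passed (median 0.01), and 0 were at 0 in every library. Their summed level was 11267 to 13145 CPM in PEA and 10954 to 13458 CPM in control, most of it from apoeb, which cells other than macrophages also express. Neutrophil markers summed to 199 to 263 CPM in PEA and 219 to 282 CPM in control. Most of this came from srgn (mean 121 CPM in PEA, 119 CPM in control) and nccrp1 (85.0 CPM in PEA, 92.4 CPM in control). The sums thus say little about the other markers of the list. Of 8 tested neutrophil markers 2 had a log2 fold change above 0, 6 below and 0 passed (median -0.16). Pigment cell markers, relevant to the role of the CSF1 receptor in yellow pigment cells, summed to 10.3 to 15.2 CPM in PEA and 12.4 to 15.4 CPM in control, and 0 of 7 tested passed. The ranges of the summed levels overlapped between groups in all of these lists, and the part of cell numbers in the cytokine values was not tested.

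**Figure D3:**
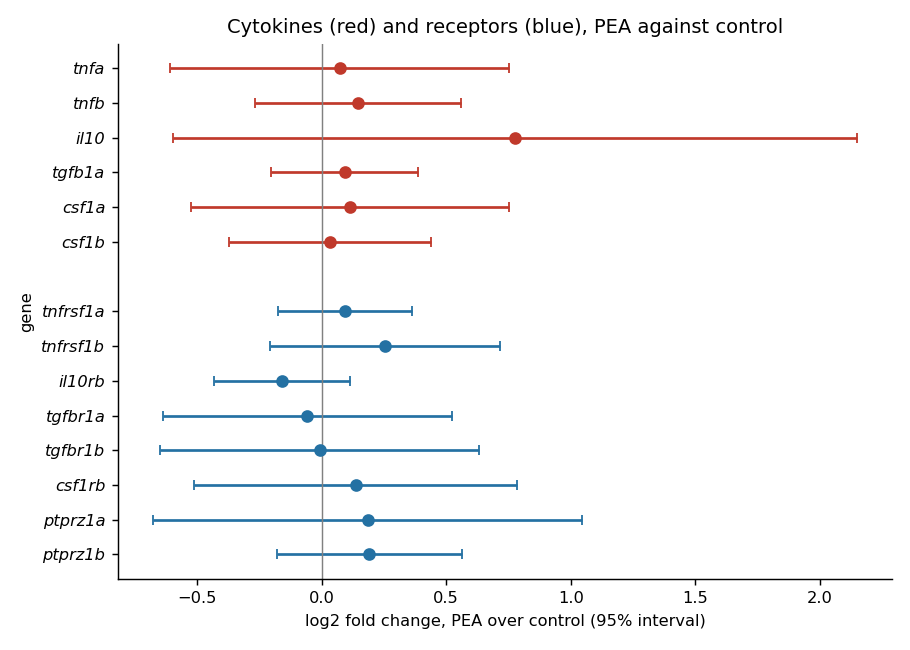
The horizontal axis gives the log2 fold change, PEA over control, with its 95% interval from edgeR, for the 6 tested cytokines (red, above) and their 8 tested receptors (blue, below), 1 gene per row. Every interval includes 0, the narrowest of the cytokines being that of tgfb1a (-0.21 to 0.39) and the widest that of il10 (-0.60 to 2.15).

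The cytokines also differed in how far replicate libraries departed from counting noise. The chi-square per degree of freedom within groups, which is near 1 where libraries differ by counting alone, was 1.12 for csf1a, 2.38 for tnfa, 2.76 for csf1b, 3.47 for tnfb, 4.63 for tgfb1a and 4.84 for il10. For csf1a the spread within groups was thus near that of counting alone, whereas for tnfb, tgfb1a and il10 it was well above. At an equal biological spread this value rises with the count, so it does not rank genes of unlike abundance. The biological coefficient of variation was 0.431 for il10, above the 0.287 fitted for genes of its abundance, and between 0.134 and 0.231 for the other 5, each below the value fitted for its abundance. The highest library was PEA 3 for tnfa and tnfb, PEA 2 for il10, PEA 1 for tgfb1a and csf1a, and control 1 for csf1b. No single library was highest or lowest for most of the cytokines.

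**Figure D4:**
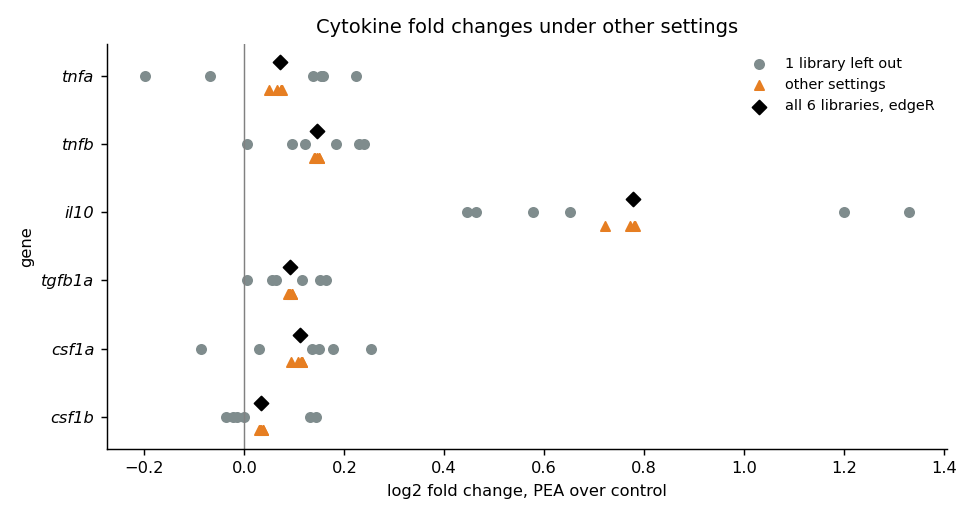
The horizontal axis gives the log2 fold change, PEA over control, of each tested cytokine (rows). Diamonds show edgeR on all 6 libraries, circles the fits with 1 library left out, and triangles the other settings (scaling, filters, block and DESeq2). Values of il10 ran between 0.45 and 1.33, and those of tnfa, csf1a and csf1b crossed 0 when single libraries were left out.

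Other cytokines were measured for context. Of 31 found by name, 18 had enough counts to be tested, 12 had a log2 fold change above 0, 6 below and 0 passed (median 0.05). The T helper cytokine gene il13 had 337, 228 and 218 counts in PEA 1 to 3, against 205, 221 and 195 counts in control 1 to 3, with a log2 fold change of 0.44 (SE 0.21, edgeR adjusted p = 1.00). PEA 1 was the highest il13 library, and PEA 3 lay just below control 1 after scaling. The B cell survival factor tnfsf13b had 4.11, 3.65 and 4.07 CPM in PEA 1 to 3, against 3.52, 3.26 and 2.99 CPM in control 1 to 3, with a log2 fold change of 0.27 (SE 0.16). The lymphocyte cytokine il21 had 30, 24 and 23 counts in PEA 1 to 3, against 33, 35 and 40 counts in control 1 to 3, with a log2 fold change of -0.38 (SE 0.26). The groups did not overlap for tnfsf13b and il21, with PEA libraries higher for tnfsf13b and lower for il21. The gene with the highest CPM of this list, tnfsf10, a TNF family death ligand, was at -0.03 (SE 0.28).

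Over all pathway lists together, without the cytokines themselves, 138 genes were found and 124 tested. Values of the log2 fold change were above 0 in 82 and below 0 in 42, with a median of 0.06. Over all genes tested 48.5% were above 0, with a median of -0.00483. Genes measured in the same libraries are not independent, and the difference in these shares was not tested. Of the 124, 0 passed the edgeR test, and 0 had an unadjusted p under 0.05, where 1.66% of all genes did. All PEA libraries were above all control libraries in 3 of the 124 (itgav, traf3 and tnfsf13b). They were below in 3 (il21, nos2b and birc2), and the share of both together was close to the 5.51% of all genes. For nos2b the margin was narrow, with 2.245 CPM in PEA 3 against 2.248 CPM in control 1. It was narrow for birc2 as well, with 168.17 CPM in PEA 1 against 168.24 CPM in control 2.

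**Figure D5:**
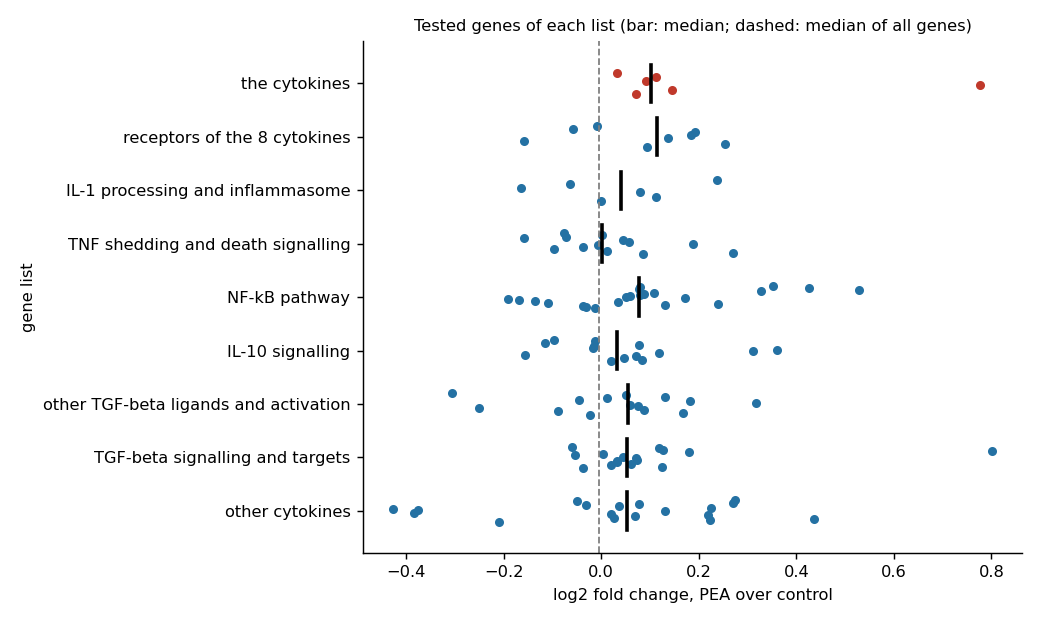
Each point is 1 tested gene, placed by its log2 fold change, PEA over control, on the horizontal axis, with the cytokines, their receptors and 7 pathway lists as rows. Black bars mark each list's median and the dashed line the median of all genes tested. Medians of the rows shown lay between 0.00 and 0.11, and il10 (0.78) lay farthest from 0 among the cytokines.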

How the data were processed

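RNA of adult olfactory epithelium from 3 PEA and 3 control libraries was sequenced by the authors. Per the submitters' processing notes, FastQC 0.11.9 and Trim Galore 0.6.4 were used on the reads, Bowtie2 for alignment (build Zv9) and HTSeq 0.11.2 for the counts. How strand and multiply aligned reads were handled, and the annotation release, was not given in the sources used here. Raw counts per gene, deposited without normalization by the authors, were the values used. The table's normalized values and its fold changes, which are the authors' own comparison, were not used.

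Counts were tested with edgeR 4.0.16 in R 4.3.3 (TMM scaling, filterByExpr with a minimum count of 10, condition as the factor, quasi-likelihood test, Benjamini-Hochberg adjustment over 20628 genes, threshold 0.05). CPM uses TMM-adjusted library sizes. The SE is the absolute log2 fold change divided by the square root of F. The alternatives were DESeq2 1.42.0, DESeq2 size factors within edgeR, omission of the low-count filter, a stricter one of 10 counts per library, a block for the number of the library, and omission of single libraries. The shares of paired copies were tested by exact permutation. Scripts were tested on simulated data. Replicate libraries differed beyond counting noise, so none were merged.

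The cytokines and the 18 gene lists were chosen with earlier results of these data known. Of 312 list entries, 246 matched, and cd3eap was dropped because it now names another gene. Named genes were all cytokines and tested receptors and, of each other list, up to 3 with the lowest p and that with the highest mean CPM, while cell marker lists are given by counts, sums and medians. The genes socs3a, socs3b, socs1a, tgfb1b, lta, il1rl1, birc2, apoeb, srgn, nccrp1, tgfbr2 and TGFBR2 (2 of 2) are not covered by it and were picked with their values in view. A gene that the rule names is not reported here. Sequences are not shown.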

Additional observations from a re-analysis of the deposited data

How the results depend on the processing

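Calls for the cytokines did not depend on the settings tried. By edgeR and by DESeq2, 0 cytokines were called under each of the 11 alternatives. Of the cytokines 1, il10, had an unadjusted p under 0.05 in 1 of them (without PEA 3, where edgeR's unadjusted p was 0.0463). That fit also had the most such genes of all settings, 923 of 20878 tested. Over all genes, 0 were called by edgeR on all libraries (342 at an unadjusted p under 0.05), 5 by DESeq2 and 0 to 1 with 1 library left out, the 1 call being zgc:163079 without control 3. The cause of these differences was not tested. DESeq2's 5 were SEL1L3, ighv1-4, igl3c3, mchr1b and ENSDARG00000038624, none of them a cytokine. All of these genes were chosen after their values were seen.

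Leaving out 1 library turned the sign of 3 cytokines, none of them called. The ranges of the log2 fold change were -0.20 to 0.22 for tnfa (below 0 without PEA 3 or control 2), -0.09 to 0.25 for csf1a (below 0 without PEA 1) and -0.04 to 0.14 for csf1b. The values below 0 were -0.198 and -0.0688 for tnfa, -0.0861 for csf1a, and -0.0360, -0.0219, -0.0147 and -0.0002455 for csf1b. The difference in the share of csf1a ranged over -0.456 to 2.45 percentage points (below 0 without PEA 1 or PEA 3, at -0.456 and -0.0190) and that of tnfa over -3.37 to 0.299 (above 0 without control 1 or PEA 2, at 0.299 and 0.108). The ranges were 0.01 to 0.24 for tnfb, 0.01 to 0.16 for tgfb1a and 0.45 to 1.33 for il10.

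With the library number as a replicate block, 0 cytokines and 0 genes were called by edgeR, with 447 genes at an unadjusted p under 0.05, and log2 fold changes under the block were 0.72 for il10, 0.14 for tnfb and 0.09 for tgfb1a. Under the same pairing the differences in share were 0.657 points for csf1a and -1.13 points for tnfa (exact sign-flip test, p = 1.00 and 0.75, the smallest possible being 0.25). Deviations of same-numbered libraries correlated at 0.17, -0.15 and 0.14 for numbers 1 to 3, so not every pair exceeded 0.1 and the block was kept as an alternative. The highest correlation, 0.24, was between libraries of unlike number, PEA 3 and control 2. The labels give same-numbered PEA and control libraries a shared group number, such as Group 1. Whether such libraries share fish, a batch or a day is not stated there. Depth limits il34, whose counts lie at the floor, and with 3 libraries per group a modest difference in any of them lies within its interval.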

Other observations

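Inflammatory effector genes, which act at the end of these pathways, were measured as well. Of 13 found and tested, 10 had a log2 fold change above 0, 3 below and 0 passed the edgeR test (median 0.09). The matrix-degrading collagenase gene mmp13a had 72, 42 and 87 counts in PEA 1 to 3, against 57, 53 and 45 counts in control 1 to 3, with a log2 fold change of 0.45 (SE 0.30). The inducible nitric oxide synthase copies differed in sign, with nos2a at 0.44 (SE 0.39) and nos2b at -0.30 (SE 0.20). For nos2b the groups did not overlap, with 1.61, 1.86 and 2.24 CPM in PEA 1 to 3. Levels in control 1 to 3 were 2.25, 2.48 and 2.31 CPM. However, PEA 3 held 106 counts of nos2b and control 1 held 97, so these libraries were parted by scaling alone. The difference between the copies was not tested. The gelatinase gene mmp9, which had the highest CPM of this list, was at 0.03 (SE 0.14).

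The interferon gamma family gene ifng1-1, whose current symbol is ifng1r, was below the low-count filter. It had 5, 16 and 9 counts in PEA 1 to 3, against 0, 2 and 8 counts in control 1 to 3. PEA 1 lay below control 3, so the groups overlapped. The gene ifng1-2, whose current symbol is ifng1, had 16, 16 and 10 counts in PEA 1 to 3. In control 1 to 3 it had 17, 13 and 31 counts. It passed the filter, and its log2 fold change was of the other sign, at -0.43 (SE 0.42). The epithelial cytokine gene il17c, below the filter, had 9, 6 and 6 counts in PEA 1 to 3, against 2, 6 and 4 counts in control 1 to 3. After scaling its groups did not overlap, with the PEA libraries higher, but PEA 2, PEA 3 and control 2 each held 6 counts and were parted by scaling alone. The cytokine gene il12a, below the filter as well, had 7, 4 and 2 counts in PEA 1 to 3, against 7, 9 and 10 counts in control 1 to 3. The groups of il12a did not overlap either, with the PEA libraries lower, but PEA 1 and control 1 each held 7 counts. Of all genes tested, 5.51% had groups that did not overlap, a share that does not cover genes below the filter such as il17c and il12a. Among these cytokines only ifng1-2 was tested, and all were chosen after their values were seen.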
